A study of Mus musculus with 16 samples.

Results

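The 8 genes described here encode proteins that carry glucose across liver membranes, store and release it as glycogen, break it down or make it anew. They are the glucose transporter Slc2a2, the glucose 6-phosphate transporter Slc37a4, the glycogen enzymes Gys2 and Pygl, the glycolytic genes Pfkfb1 and Pklr, and the gluconeogenic enzymes Pcx and Fbp1. They were taken as a list of names and were found on the array through the RefSeq accession of each probe, which gave 9 probes for the 8 genes among 25790 features tested. Gys2 had 2 probes and each other gene had 1. Slc2a2 and Pklr lie on chromosome 3, Gys2 on 6, Slc37a4 on 9, Pygl on 12, Fbp1 on 13, Pcx on 19 and Pfkfb1 on X. The livers came from male ApoE KO mice on a high-fat diet, with a stated age of 8 weeks, and were collected after 8 weeks. The miR-185-inh group of 8 mice had received a lentivirus carrying an antisense RNA against the microRNA miR-185, and the ctrl-inh group of 8 mice the control inhibitor. Loss of ApoE, which leaves mice prone to high plasma cholesterol and atherosclerosis, and the diet were shared by both groups, so neither group is a normal liver. The study set out to find miR-185-dependent genes of bile acid metabolism, and the glucose genes were measured on the same arrays.

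Hepatocytes take up and release glucose through the GLUT2 transporter, which Slc2a2 encodes. Inside the cell, glucose 6-phosphate stands at a branch point. Glycogen synthase 2, the product of Gys2, lengthens glycogen in the liver, and glycogen phosphorylase, the product of Pygl, shortens it. Pyruvate kinase, from Pklr, catalyses the last step of glycolysis, while pyruvate carboxylase, from Pcx, and fructose-1,6-bisphosphatase, from Fbp1, work in the opposite direction. Pfkfb1 encodes a bifunctional enzyme that makes and degrades fructose 2,6-bisphosphate, the signal that favours glycolysis and restrains Fbp1. Slc37a4 moves glucose 6-phosphate into the endoplasmic reticulum, where its phosphate is removed before glucose leaves the cell. Many of these genes follow feeding, insulin, glucagon and the daily clock in liver.

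All values below are log2 of a probe's background-corrected signal minus the 75th percentile of its array, so a difference of 1 between groups is a doubling. Between 58.7% and 74.8% of the 59305 spots were well above background on each array, and the number of arrays limits the precision. All 8 genes were well above background on all 16 arrays and no spot of theirs was saturated. The 12 hepatocyte markers, Alb among them, were all detected on every array, and by limma 0 of 12 passed the test between the groups, or had an unadjusted p under 0.05. Their differences lay below 0 in 10 of the 12, with a median of -0.07. The median level of these markers was 5.32. Among the 327 features with a mean level over 5, 80.1% lay below 0, with a median of -0.086, so this count does not set the markers apart. The summed hepatocyte marker signal, in units of each array's 75th percentile, was 394.8 to 525.5 in miR-185-inh livers and 429.2 to 587.1 in ctrl-inh livers. The differences of all 8 neutrophil markers were below 0, with a median of -1.12 and a summed signal of 1.94 to 12.4 in miR-185-inh and 4.10 to 14.9 in ctrl-inh livers. Of these, 2 passed, Ltf and Ngp (adjusted p = 0.024 and 0.043, limma). Ltf was well above background on 3 of 8 miR-185-inh and 8 of 8 ctrl-inh arrays. It was thus kept only with its ctrl-inh arrays, and its difference rests on miR-185-inh values near background. Only 4 of the 8 neutrophil markers were well above background on all arrays. Of 7 pancreatic acinar markers, which differed in both directions, 1, Cel, passed with a lower value (difference -0.48, limma adjusted p = 0.017) and 6 had an unadjusted p under 0.05. The part of neutrophil and acinar markers in the results below was not tested. In whole liver, fewer cells of a type and less RNA per cell cannot be told apart. All miR-185-inh arrays lay on 1 slide and all ctrl-inh arrays on another, and treatment and slide, with its scan, cannot be told apart. The miR-185-inh mice 3 and 6 stood apart from the other 6 in clock genes, as set out below, and the differences of the 8 genes are given with and without them.

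Promoter sequence was available from RefSeq (GRCm38.p6) for 7 of the 8 genes, as 14 windows of the 250 bases before an annotated start. Gys2 is named only. Each window was searched on both strands for the letters of 5 motifs. These were the E-box CACGTG, which clock factors bind, the D-box TTANGTAA of Dbp and its relatives, the cAMP response element TGACGTCA, the pair of E-boxes CACGNGNNNNNCNCGTG of a carbohydrate response element and the HNF1 pattern GTTANNNNNTAAC. The downstream Pklr window held the carbohydrate response pattern from base 170 to base 154 before the start, which 0.0396% of 32851 windows hold, and the HNF1 pattern from base 94 to base 82, which 0.307% hold. A Pcx window held the E-box from base 248 to base 243, as 6.02% of windows do. The D-box (2.06% of windows) and the cAMP response element (1.55%) were in none of the 14, and 12 of the 14 held none of the 5. The Pklr window at chr3:89136373-89136622 is shown with the window of Slc2a2 at chr3:28697653-28697902, both on the plus strand, because the signals of these 2 genes varied together across mice and their starts differ in these letters. Capitals mark the matched motifs, the carbohydrate response pattern first and the HNF1 pattern second.
Pklr: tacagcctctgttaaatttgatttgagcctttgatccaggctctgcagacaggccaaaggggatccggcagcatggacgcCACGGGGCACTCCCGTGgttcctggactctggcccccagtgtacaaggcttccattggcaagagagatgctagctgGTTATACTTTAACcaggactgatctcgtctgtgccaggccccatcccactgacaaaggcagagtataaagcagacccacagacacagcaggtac
Slc2a2: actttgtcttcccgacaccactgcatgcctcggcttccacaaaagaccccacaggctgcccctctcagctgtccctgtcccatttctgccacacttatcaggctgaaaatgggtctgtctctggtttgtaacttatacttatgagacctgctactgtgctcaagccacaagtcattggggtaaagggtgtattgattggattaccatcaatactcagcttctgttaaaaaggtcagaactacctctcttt

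None of the 8 genes passed the test between miR-185-inh and ctrl-inh livers, which was limma's moderated test with Benjamini-Hochberg adjustment over all features. Over all features 4.71% passed, 1.24% higher and 3.47% lower, so a count of 0 among 8 genes does not set them apart from the rest. Of the 8 differences, 4 lay above 0 and 4 below. Their median was 0.020, beside -0.033 over all features, of which 42.0% lay above 0. At an unadjusted p under 0.05 limma had 1 of the 8 genes, Fbp1, and 20.2% of all features. Over the 8 genes the 95% intervals of the fold, miR-185-inh over ctrl-inh, ran down to 0.784 (Pfkfb1) and up to 1.41 (Gys2). These limits hold for the brightest probe in the main scaling only. On the log2 scale the upper bound of Gys2 was 0.49 there, 0.54 for its second probe and 0.60 with another background correction (normexp). Of the main intervals the narrowest was that of Pcx, with a fold of 0.921 and bounds of 0.842 and 1.01. The widest was that of Pklr, with a fold of 1.06 and bounds of 0.831 and 1.35.

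**Figure D1:**
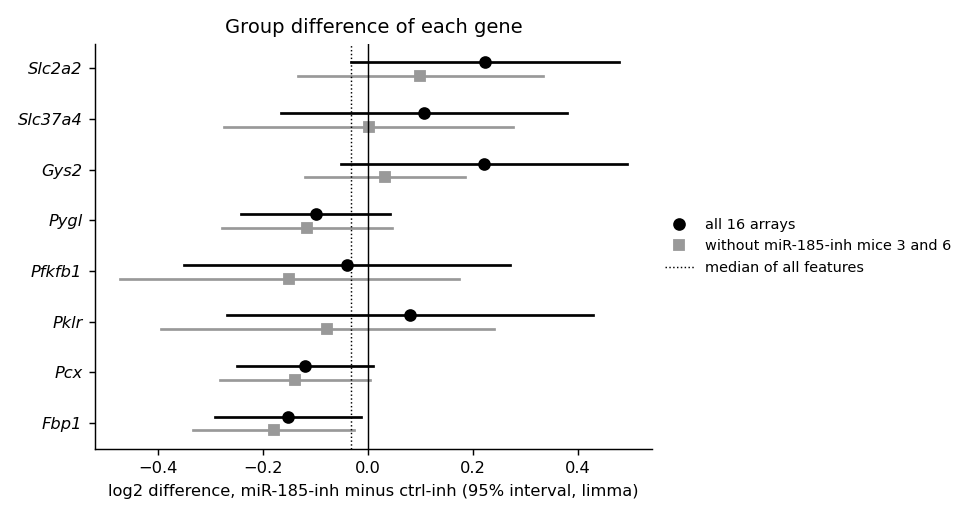
Group difference of each of the 8 genes on the log2 scale (x axis, miR-185-inh minus ctrl-inh) with 95% limma intervals, over all 16 arrays (circles) and without miR-185-inh mice 3 and 6 (squares). The dotted line is the median of all features, -0.033. Over all arrays only the interval of Fbp1, -0.29 to -0.01, leaves out 0, and the squares of Slc2a2, Slc37a4 and Gys2 lie closer to 0 than their circles.

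The transporter genes had the higher group means in miR-185-inh livers, within the spread between mice. Slc2a2 ranged from 2.94 to 3.69 with a median of 3.26 in miR-185-inh livers, and from 2.74 to 3.31 with a median of 3.14 in ctrl-inh livers. The ranges overlapped from 2.94 to 3.31, and 3 miR-185-inh mice (1, 3 and 6, at 3.51, 3.68 and 3.69) exceeded every ctrl-inh mouse. The means were 3.32 ± 0.30 and 3.09 ± 0.20 (SD, n = 8 each), a difference of 0.22 with a 95% interval of -0.03 to 0.48 (limma adjusted p = 0.319), and 6 of 8 miR-185-inh mice exceeded the ctrl-inh mean. Slc37a4 ranged from 3.58 to 4.13 with a median of 3.71 in miR-185-inh livers, and from 3.02 to 4.15 with a median of 3.71 in ctrl-inh livers. The medians were the same to 2 decimals, and the lowest ctrl-inh value, that of mouse 2, lay well below the other 7 (3.65 to 4.15). The difference in means was 0.11 with an interval of -0.16 to 0.38 (limma adjusted p = 0.695).

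The glycogen genes did not move together. Gys2 ranged from 3.63 to 4.52 with a median of 3.75 in miR-185-inh livers, and from 3.53 to 3.85 with a median of 3.64 in ctrl-inh livers. Its 2 highest values, 4.42 and 4.52 in miR-185-inh mice 3 and 6, stood clear of all other mice, and the other 6 miR-185-inh mice (3.63 to 3.91) lay almost within the ctrl-inh range. The means were 3.91 ± 0.36 and 3.69 ± 0.12 (SD, n = 8 each), and the difference of 0.22 had an interval of -0.05 to 0.49 (limma adjusted p = 0.360). The SD in miR-185-inh livers was 3.12 times that in ctrl-inh livers. The second Gys2 probe followed the first across mice (r = 0.981 in miR-185-inh and 0.958 in ctrl-inh livers, n = 8 each, as a description) and differed by 0.28, with an interval of 0.02 to 0.54 and an adjusted p of 0.217 over all probes (limma). Pygl ranged from 4.27 to 4.76 with a median of 4.55 in miR-185-inh livers, and from 4.54 to 4.79 with a median of 4.62 in ctrl-inh livers. In miR-185-inh livers 7 of 8 values lay below the ctrl-inh mean, while the highest, 4.76 in mouse 1, was near the top of the ctrl-inh range. The difference was -0.10 with an interval of -0.24 to 0.04 (limma adjusted p = 0.440).

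The glycolytic genes had wide spreads and near-equal means. Pfkfb1 ranged from 0.26 to 1.07 with a median of 0.71 in miR-185-inh livers, and from 0.47 to 1.31 with a median of 0.52 in ctrl-inh livers. In ctrl-inh livers 5 of the 8 values lay between 0.47 and 0.52 and the other 3 reached 0.80, 1.15 and 1.31, whereas the miR-185-inh values were spread over their whole range. The median and the mean differed in sign, since the difference in means was -0.04 with an interval of -0.35 to 0.27 (limma adjusted p = 0.910). Pklr ranged from -1.34 to 0.13 with a median of -0.68 in miR-185-inh livers, and from -1.22 to -0.46 with a median of -0.58 in ctrl-inh livers. Mouse 9 of each group was the lowest of its group, and both samples lay at row 2 and column 2 of their slides. The part of array position in this was not tested. The miR-185-inh mice 1, 3 and 6 (-0.26, -0.33 and 0.13) lay above all ctrl-inh mice. The difference in means was 0.08 with an interval of -0.27 to 0.43 (limma adjusted p = 0.835).

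Both gluconeogenic enzymes had means slightly lower in miR-185-inh livers, and in each of them all 8 miR-185-inh mice lay below the ctrl-inh mean. Fbp1 ranged from 4.91 to 5.30 with a median of 5.21 in miR-185-inh livers, and from 5.21 to 5.47 with a median of 5.29 in ctrl-inh livers. The ranges overlapped only between 5.21 and 5.30, and mice 7 and 12 were the lowest of the miR-185-inh group (4.98 and 4.91). The means were 5.16 ± 0.14 and 5.31 ± 0.08 (SD, n = 8 each), and the difference of -0.15 had a standard error of 0.066 and an interval of -0.29 to -0.01, a fold of 0.900. An exact two-sided permutation test over the 6435 splits of the mice gave p = 0.012 for this single gene, and limma's p was 0.033 before and 0.198 after adjustment over all features. Pcx ranged from 3.84 to 4.12 with a median of 4.03 in miR-185-inh livers, and from 3.96 to 4.25 with a median of 4.13 in ctrl-inh livers. Its means were 4.001 ± 0.114 and 4.121 ± 0.0939 (SD, n = 8 each), a difference of -0.12 with an interval of -0.25 to 0.01 (exact permutation p = 0.041, limma adjusted p = 0.292). The single-gene p of the other 6 genes ran from 0.102 to 0.797 in the same exact permutation test.

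The size of the Fbp1 difference depended on the background correction. With normexp background correction in place of the scanner's, it was -0.01, and with quantile normalization -0.09. Among the 327 features with a mean level over 5, where Fbp1 lies, the median difference was -0.086 and 80.1% were below 0, and the part of signal level in the Fbp1 difference was not tested. Among the 1334 features between 4 and 5, where Pcx and Pygl lie, the median was -0.020. The Pcx difference was -0.13 with normexp and -0.11 with quantile normalization, both close to its main value, and that of Pygl was -0.03 and -0.07.

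**Figure D2:**
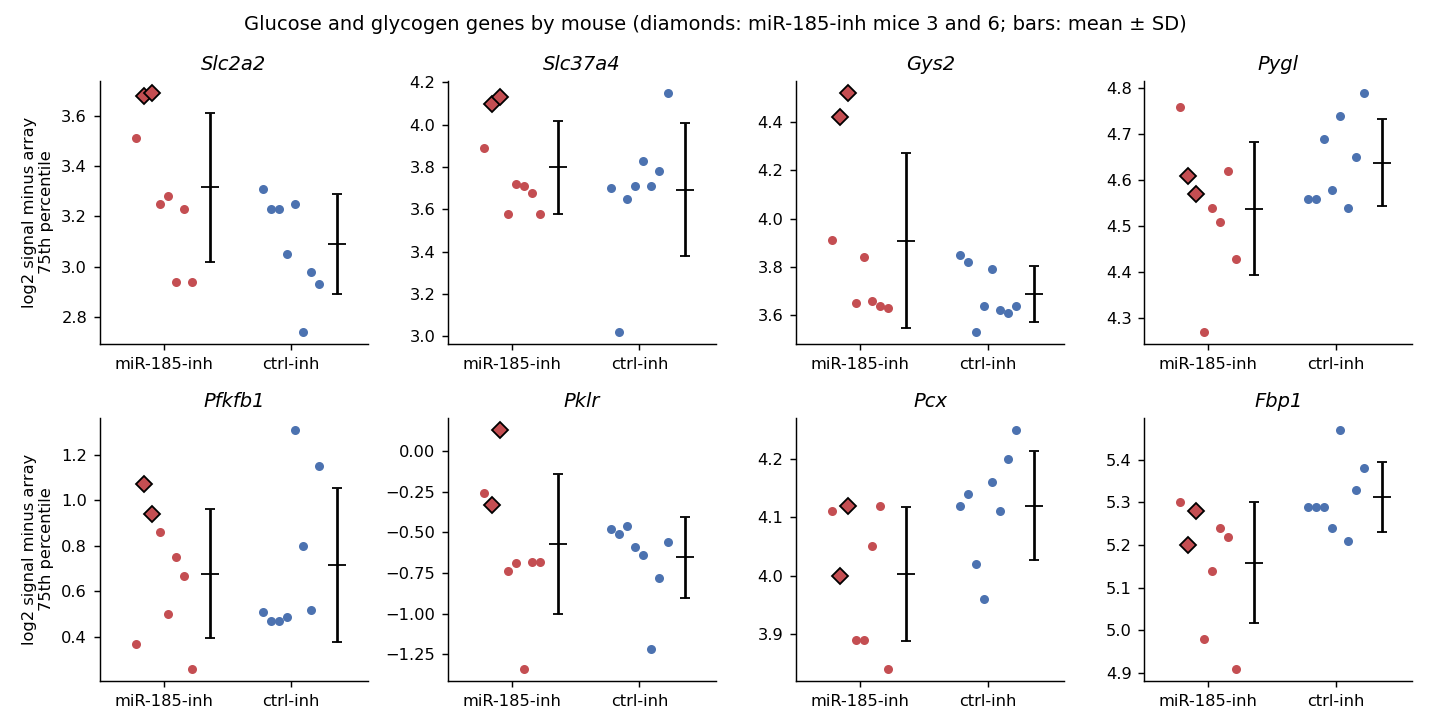
Log2 signal relative to the array's 75th percentile (y axis) for each mouse, with miR-185-inh mice left of ctrl-inh mice in each panel and bars for the mean ± SD (n = 8 each). Diamonds mark miR-185-inh mice 3 and 6, which are the highest of their group for Slc2a2, Slc37a4, Gys2 and Pfkfb1 but not for Pygl or Fbp1.

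The higher means of Slc2a2 and Gys2 rested largely on miR-185-inh mice 3 and 6, and that of Slc37a4 on these mice and on the low ctrl-inh mouse 2. Mice 3 and 6 were the 2 highest miR-185-inh mice for Slc2a2, Slc37a4, Gys2 and Pfkfb1, and both exceeded every ctrl-inh mouse for Slc2a2, Gys2 and Pklr. Without them the differences were 0.10 for Slc2a2, 0.002 for Slc37a4 and 0.03 for Gys2 (limma adjusted p = 0.850). That of Pklr changed sign, to -0.08, and that of Pfkfb1 was -0.15. With mice 3 and 6 kept in and ctrl-inh mouse 2 alone left out, the Slc37a4 difference was 0.01. The lower means did not rest on mice 3 and 6, since without them the difference was -0.18 for Fbp1, -0.14 for Pcx and -0.12 for Pygl. Of the 8 genes 0 passed in the set without mice 3 and 6 too, with 1 at an unadjusted limma p under 0.05, while 1206 of the 25790 features did.

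The same 2 mice stood apart in many genes of the circadian clock. Of 16 measured clock genes, both mice lay above all 14 other mice in 8 and below them all in 2, Arntl and Npas2. In the remaining 6, Clock and Nr1d1 among them, they did not. Per2, a repressor of the clock loop, was at 1.25 and 1.15 in miR-185-inh mice 3 and 6, between -1.97 and -0.09 in the rest of their group and between -1.49 and -0.57 in ctrl-inh mice. Usp2, a ubiquitin protease with a strong daily rhythm in liver, was at 2.70 and 3.09 in mice 3 and 6, at most 0.05 in the other 6 and at most -0.70 in ctrl-inh mice. Both genes therefore separated these mice from all others by more than the whole range of the ctrl-inh group. Arntl, the clock's activator, whose rhythm runs opposite to that of Per2, was at -1.94 and -2.98 in mice 3 and 6, against 0.20 to 1.89 in the other 6 and 0.76 to 1.81 in ctrl-inh mice. Dbp, a D-box factor with one of the largest rhythms in liver, was at 4.35 in both, against 1.44 to 3.80 in the other 6 and 0.83 to 2.57 in ctrl-inh mice. Mouse 1 of the miR-185-inh group lay between, at 3.80 for Dbp, -0.09 for Per2 and 0.20 for Arntl. It was also the third highest miR-185-inh mouse for Slc2a2, Slc37a4 and Gys2. Arntl, Dbp and Per1 were singled out after their values were seen. Of 16 measured clock genes 0 passed between the groups, with 1 at an unadjusted limma p under 0.05 and a median difference of 0.17. Hlf, a D-box factor related to Dbp, came nearest, at a difference of 0.52 (limma adjusted p = 0.069), which was 0.31 without mice 3 and 6 (0.127).

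**Figure D3:**
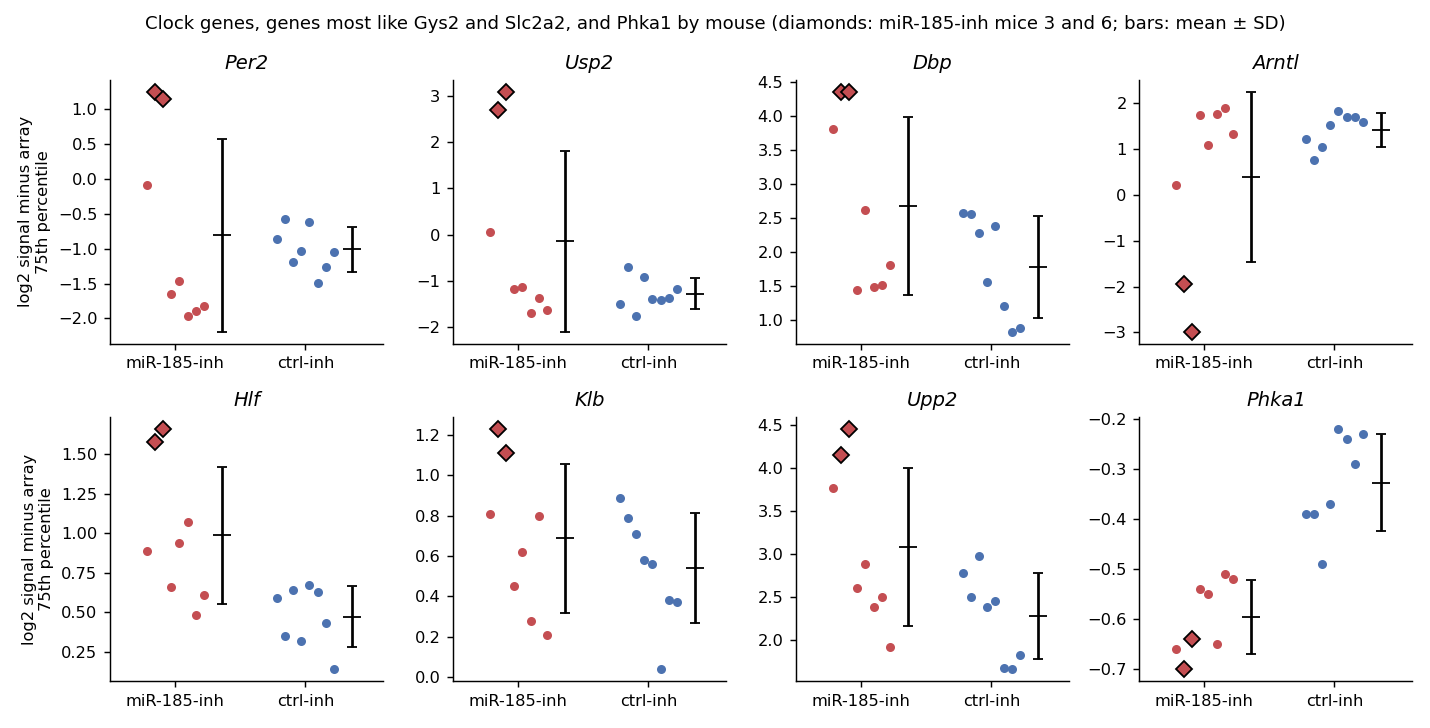
Log2 signal relative to the array's 75th percentile (y axis) by mouse for clock genes, for Klb and Upp2, which varied most like Slc2a2, and for Phka1, a glycogen gene that passed the test, with miR-185-inh left of ctrl-inh and bars for mean ± SD (n = 8 each). Diamonds are miR-185-inh mice 3 and 6, far above the other mice in Per2 and Usp2 and far below them in Arntl, while in Phka1 all 8 miR-185-inh mice lie below all ctrl-inh mice.

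The 8 arrays of a slide stood in 2 rows of 4, and the group difference of each gene was also taken within each row. Slc37a4 averaged 3.93 in row 1 and 3.67 in row 2 of the miR-185-inh slide, against 3.52 in row 1 and 3.87 in row 2 of the ctrl-inh slide. Its group difference was 0.41 within row 1 and -0.19 within row 2. Pfkfb1 averaged 0.81 in row 1 and 0.54 in row 2 of the miR-185-inh slide, against 0.48 in row 1 and 0.95 in row 2 of the ctrl-inh slide, so its difference was 0.32 within row 1 and -0.40 within row 2. For these genes the 2 rows thus gave opposite directions. The difference between rows, tested as a limma interaction, was -0.60 for Slc37a4 (unadjusted p = 0.016, adjusted p = 0.215) and -0.73 for Pfkfb1 (unadjusted p = 0.009, adjusted p = 0.170). No gene of the 8 passed this test, which 0.372% of all features did, and 2 of 8 had an unadjusted p under 0.05, beside 14.8% of all features. Within rows 1 and 2 the difference was 0.42 and 0.03 for Gys2, 0.32 and 0.12 for Slc2a2, and 0.21 and -0.05 for Pklr. It was -0.09 and -0.22 for Fbp1, -0.03 and -0.21 for Pcx, and -0.04 and -0.16 for Pygl, below 0 in both rows. The miR-185-inh mice 3 and 6 both lay in row 1, as did ctrl-inh mouse 2 with its low Slc37a4 value of 3.02. The row differences were not taken without these mice. Between the rows of 1 slide, 0% of all features passed within miR-185-inh livers by limma, with 3000 at an unadjusted p under 0.05, and 4.65% within ctrl-inh livers.

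Across the mice of each group, the glucose genes mostly varied in the same direction in the main scaling, but less so with quantile normalization. Pearson's r was computed for all 28 pairs in each group, with exact permutation over the 40320 pairings of 8 mice and adjustment over the 56 tests. Where 1 or 2 mice stood far from the rest in a gene, r is given over the others only. This left out miR-185-inh mice 3 and 6 for Gys2, ctrl-inh mouse 2 for Slc37a4 and ctrl-inh mouse 9 for Pklr, and the p-values of these 20 pairs over 6 or 7 mice were adjusted among themselves. On this basis 26 of 28 pairs were positive in miR-185-inh livers, with a median r of 0.548, and 19 of 28 in ctrl-inh livers, with a median of 0.278. Over all 8 mice 27 of 28 were positive in miR-185-inh and 20 of 28 in ctrl-inh livers. These counts are for the main scaling, where r over all 8 ctrl-inh mice ran from -0.40 to 0.82. With quantile normalization it ran from -0.73 (Slc37a4 and Pcx) to 0.78 (Slc2a2 and Pklr) in ctrl-inh livers. There Pfkfb1 and Fbp1 went from 0.744 in the main scaling to -0.443. Over all 8 miR-185-inh mice r then ran from -0.638 (Pygl and Pfkfb1) to 0.985 (Slc37a4 and Gys2). Fewer pairs were positive with quantile normalization than in the main scaling in both groups. The median r of each gene with all RefSeq-named features, over the 16 arrays with each group centred on its mean, was 0.009 (Pklr) to 0.146 (Pcx). Its upper quartile was 0.262 (Pklr) to 0.416 (Fbp1). This is not the same measure as r within 1 group, and features of like signal level were not compared. All r share the array's scaling, and the difference between the groups was not tested.

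Pcx and Fbp1, on the same gluconeogenic route, had r = 0.903 over the 8 miR-185-inh mice (rho = 0.881, exact permutation p = 0.00057 for r and 0.0072 for rho, adjusted p = 0.016 and 0.101). Without the 2 mice farthest from the median of Pcx it was 0.881, and with the means of the slide rows taken out it was 0.898. It did not hold under the other scalings tried, at 0.129 with normexp and -0.213 with quantile normalization. In ctrl-inh livers r was 0.598 (rho = 0.857, exact permutation adjusted p = 0.377 for r and 0.120 for rho, n = 8).

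Slc2a2 and Pklr, on the same path from glucose entry to pyruvate, had r = 0.861 in miR-185-inh livers (rho = 0.667, exact permutation p = 0.0037 and 0.083, adjusted p = 0.051 and 0.353, n = 8). It was 0.776 without the 2 mice farthest from the median of Slc2a2, 0.723 with row means taken out, 0.792 with normexp and 0.902 with quantile normalization. In ctrl-inh livers r was 0.586 over 7 mice (exact permutation p = 0.162, adjusted p = 0.500 over the 20 pairs). The pair kept its sign in every one of these settings, but its adjusted p did not pass in either group. These are the genes whose start windows are printed above, of which only that of Pklr held any of the 5 motifs.

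Slc37a4, the glucose 6-phosphate transporter, and the glycogen gene Gys2 had r = 0.844 over the 6 miR-185-inh mice without mice 3 and 6 (rho = 0.943, exact permutation p = 0.0069 and 0.017, adjusted p = 0.139 for r over the 20 pairs), and r = 0.030 over 7 ctrl-inh mice (exact permutation p = 0.936). Slc2a2 and Gys2 had r = 0.767 over those 6 mice (exact permutation p = 0.079), and 0.550 in ctrl-inh livers (exact permutation p = 0.144, n = 8). Slc2a2 and Slc37a4 had r = 0.884 over 8 miR-185-inh mice (exact permutation p = 0.0048, adjusted p = 0.054), 0.676 without the 2 mice farthest from the median of Slc2a2, and -0.288 over 7 ctrl-inh mice. Pygl and Fbp1 had r = 0.804 in miR-185-inh and 0.809 in ctrl-inh livers (exact permutation adjusted p = 0.077 in both, n = 8 each), which was 0.122 and 0.628 with quantile normalization. Of these pairs none passed the adjusted threshold over the mice given here. With mice 3 and 6 kept in, although they form a separate cluster for Gys2, the miR-185-inh pairs of Gys2 with Slc37a4 and with Slc2a2 did pass (exact permutation, adjusted p = 0.0069 and 0.021).

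**Figure D4:**
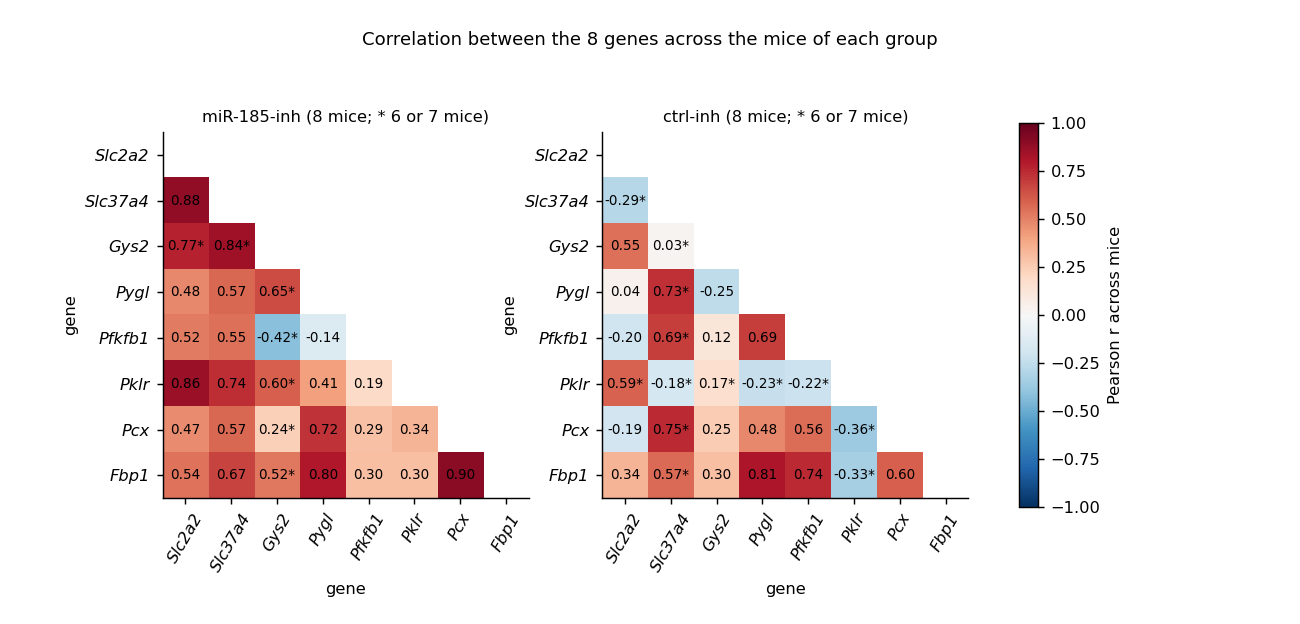
Pearson's r for each pair of the 8 genes across the mice of a group, miR-185-inh at left and ctrl-inh at right, on a colour scale of -1 to 1. An asterisk marks pairs given over 6 or 7 mice because 1 or 2 mice stood far from the rest in one of the genes; the highest value is 0.90 for Pcx and Fbp1 in miR-185-inh livers.

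For each gene, the RefSeq-named features with the most similar profile were listed by r over the 16 arrays after each group was centred on its mean, among 15156 features compared, as a description with no test. Slc2a2 was most like Klb, the co-receptor of FGF21 and FGF19 in liver (r = 0.947), Upp2, a uridine phosphorylase (0.937), and Cyp2d13 (0.926). Without miR-185-inh mice 3 and 6 these were at 0.914, 0.895 and 0.902 over 14 arrays. Gys2 was most like Per2 (0.952), Usp2 (0.947) and Marveld1 (0.944), which were at 0.792, 0.623 and 0.703 without these mice, so the likeness rested in part on them. Pklr was most like Hcn3 (0.897), Klf10, a glucose-responsive repressor (0.887), and Rpia, a pentose phosphate enzyme (0.878), and without these mice r was 0.906, 0.932 and 0.829. Hcn3 is a channel gene whose annotated end overlaps that of Pklr by 41 bases, and whether the probes of this pair pick up each other's transcript was not tested. Pygl was most like Gnmt, glycine N-methyltransferase (0.912), Krt4 (0.907) and Pabpc6 (0.891). Pcx was most like Gstz1, an enzyme of tyrosine breakdown (0.924), the selenium carrier Selenop (0.904) and Akr7a5 (0.902). Fbp1 was most like the ribosomal protein gene Rpl10a (0.964), Urah, an enzyme of urate breakdown (0.961), and Uqcrc2, a subunit of respiratory complex III (0.957), and 425 features had an r over 0.8 with it, against 24 for Pklr and 24 for Pfkfb1. Slc37a4 was most like Glra2 (0.893), Vamp1 (0.878) and Hbp1 (0.873), and Pfkfb1 most like Gmppb (0.889), Ptcd2 (0.884) and Srm, spermidine synthase (0.864).

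Of 157 genes in 10 lists of related pathways 4 passed the test, which is 2.55% beside 4.71% of all features, and 23 (14.6%) had an unadjusted limma p under 0.05, beside 20.2% of all features. These shares show nothing particular to the lists. Through a match by synonym, Fbp1 itself was counted in place of Fbp2, also among the 23, and Ccdc22 in place of the glycogen gene Ppp1r3f. Of 24 other glycolytic genes 0 passed and 2 had an unadjusted limma p under 0.05, 12 lay above 0 and 12 below, and the median difference was -0.001. Gapdh had the smallest p among them, at 4.77 ± 0.11 in miR-185-inh and 4.99 ± 0.15 in ctrl-inh livers (SD, n = 8 each), a difference of -0.22 (limma adjusted p = 0.084). Of 18 genes counted for gluconeogenesis and its carbon entry, Fbp1 among them, 1 passed, Slc25a11, the mitochondrial carrier that exchanges 2-oxoglutarate for malate. It rose by 0.23 (limma adjusted p = 0.038), with 3.49 to 3.89 in miR-185-inh and 3.36 to 3.57 in ctrl-inh livers. Every miR-185-inh value exceeded the ctrl-inh mean, but the adjusted p was 0.063 without mice 3 and 6.

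Of 26 genes counted for glycogen, Ccdc22 among them, 1 passed, with 10 above 0, 16 below and a median of -0.05. Phka1, the muscle form of the regulatory alpha subunit of phosphorylase kinase, was at -0.70 to -0.51 in miR-185-inh and -0.49 to -0.22 in ctrl-inh livers. The groups did not overlap. It fell by 0.27 with a standard error of 0.055, a fold of 0.830 (limma adjusted p = 0.012; exact permutation p = 0.000155, the smallest that these groups allow). Ugp2 and Gbe1, which make the glucose donor and the branches of glycogen, differed by 0.004 and 0.05. Ppp1r3b, which targets protein phosphatase 1 to liver glycogen and so activates glycogen synthase, was at 5.03 ± 0.15 in miR-185-inh and 5.25 ± 0.17 in ctrl-inh livers (SD, n = 8 each; difference -0.21, limma adjusted p = 0.152). Ugp2, Gbe1 and Ppp1r3b were named after their values were seen.

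Of the 9 pentose phosphate genes 1 passed, Rpe, the epimerase that links ribulose and xylulose 5-phosphate, while 7 of 9 lay below 0. Rpe rose by 0.50 with a standard error of 0.10, a fold of 1.42 (limma adjusted p = 0.011), with 0.69 to 1.51 in miR-185-inh and 0.53 to 0.79 in ctrl-inh livers. Its lowest miR-185-inh value was that of mouse 3, and all 8 lay above the ctrl-inh mean of 0.67. Slc2a10, a glucose transporter of the same family as Slc2a2, fell by 0.26 (limma adjusted p = 0.035), at -3.26 to -2.91 in miR-185-inh and -3.01 to -2.63 in ctrl-inh livers. It was the 1 of 7 measured other glucose transporters to pass, and its adjusted p was 0.214 with normexp and 0.122 with quantile normalization. Without miR-185-inh mice 3 and 6 the difference was 0.57 for Rpe, -0.24 for Phka1 and -0.28 for Slc2a10 (limma adjusted p = 0.0033, 0.031 and 0.036). Within slide row 2 alone, where 1.81% of all features passed, Rpe passed (limma adjusted p = 0.033) and Phka1, Slc2a10 and Slc25a11 did not (0.075, 0.095 and 0.333). Within row 1 alone 0% of all features passed, these 4 genes included.

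In the remaining lists 0 genes passed by limma, while at an unadjusted p under 0.05 there were 1 of 8, 3 of 14, 1 of 13 and 3 of 22 genes in the order given here. They were 8 fructose and polyol genes (median difference 0.07), 14 genes of pyruvate handling (0.06, 11 of them above 0), 13 carbohydrate-response and lipogenic genes (-0.04) and 22 regulators of hepatic glucose production (0.02). Among them Mlxipl, which encodes the carbohydrate response factor ChREBP, was at 3.80 ± 0.09 in miR-185-inh and 3.96 ± 0.09 in ctrl-inh livers (SD, n = 8 each; difference -0.17, limma adjusted p = 0.1003). Pdk2, a kinase that inactivates pyruvate dehydrogenase, was at 1.36 ± 0.16 in miR-185-inh and 1.18 ± 0.10 in ctrl-inh livers (SD, n = 8 each; difference 0.18, limma adjusted p = 0.144). The largest spread was again in the clock list, where single genes differed by -1.04 (Arntl) to 0.89 (Dbp) on the log2 scale with neither past the threshold.

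**Figure D5:**
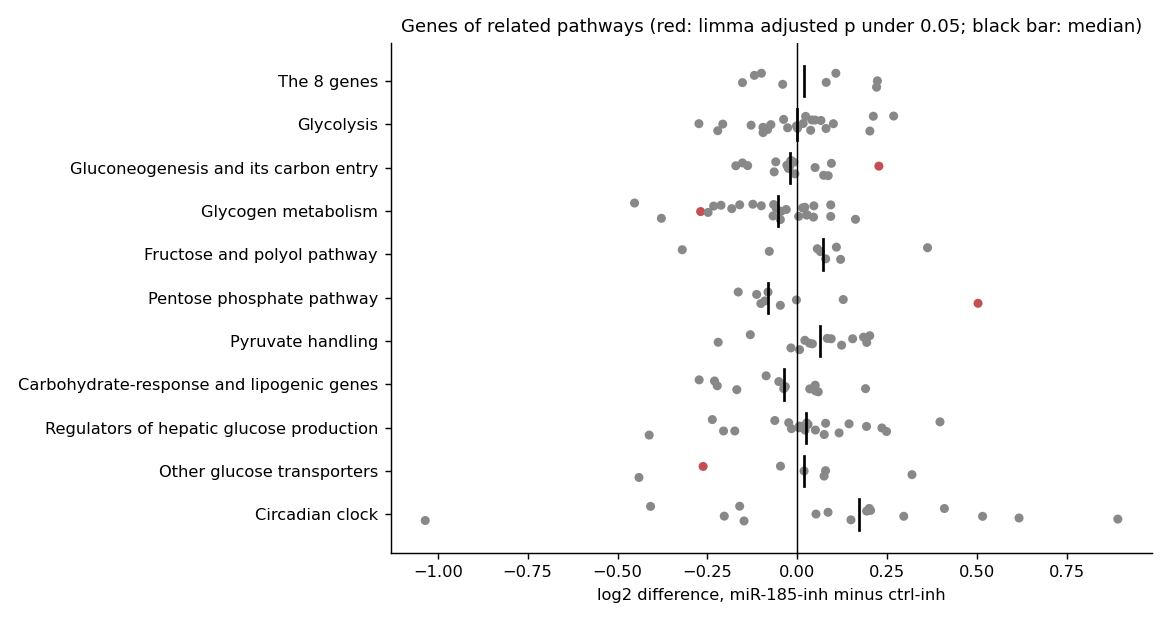
Log2 difference, miR-185-inh minus ctrl-inh (x axis), of each gene in the 8-gene set and in related pathway lists (rows), with black bars for medians. Red points are the 4 genes with a limma adjusted p under 0.05, Slc25a11 (0.23), Phka1 (-0.27), Rpe (0.50) and Slc2a10 (-0.26).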

How the data were processed

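Cy3-labelled cRNA from 16 mouse livers was hybridised to 1-colour Agilent arrays, 1 per liver. Per the file headers, the deposited scanner files come from Feature Extraction 11.5.1.1 and give every spot a processed intensity, from which background had been subtracted and a spatial trend removed, while the submitters' processing notes name version 9.1. The authors' deposited value table is on a log2 scale and equals log2 of that processed intensity minus 1 constant per array over 35985 matched probes. Its columns have medians from -1.30 to -1.22, its genes are not centred, and the origin of its constant is not stated in the labels or headers.

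Control spots and outlier spots were left out, spots of a probe were averaged, and the processed intensity was put on a log2 scale, less the array's own 75th percentile. Features well above background on at least 8 of 16 arrays, whatever their group, were kept, with the brightest probe for each gene. Probes were named through RefSeq accessions, with 26762 of 55681 matched to 20284 symbols (GRCm38.p6). Groups and mouse numbers come from the labels, which number the livers but do not say outright that each came from its own animal, so the spread behind each p-value is that between samples and may be technical. The test between groups was limma's (3.58.1, R 4.3.3), two-sided, and its p-values were adjusted by Benjamini-Hochberg across the 25790 features, with 0.05 as the threshold. Single genes and correlations were also tested by exact permutation in Python 3.11.15. The fits were tested on simulated data.

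Slide and scan could not be fitted as a block because each holds 1 group, and slide row was used as a technical split. Mouse numbers shared between groups did not pair the samples. The alternatives were normexp background correction (offset 50) of the median spot intensity, quantile normalization, the percentile over detected probes, the authors' table, other filters and probe rules, slide position, array weights, a trended and robust fit, a replicate block and leaving out each mouse. The genes and lists were chosen with earlier results of these data known. The text names the 8 genes, the 3 features most like each, and from each list the genes that passed or else those with the smallest p; any other choice is marked. The rule named 10 genes, of which 8 are reported here. miR-185 itself was not analysed here.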

Additional observations from a re-analysis of the deposited data

Results flagged for a closer look

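In 2 of the 16 sets of values (8 genes in 2 groups), 1 mouse lay farther from the others than Dixon's 95% limit for 8 samples, and chance flags about 1 set in 20. Slc37a4 was lowest in ctrl-inh mouse 2, at 3.02, with the nearest ctrl-inh value at 3.65, so the gap was 0.555 of the group's range. Pklr was lowest in ctrl-inh mouse 9, at -1.22, with the nearest ctrl-inh value at -0.78, a gap of 0.573 of the range.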

How the results depend on the processing

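None of the 8 genes passed by limma under any alternative tried, and 0 to 2 of them had an unadjusted p under 0.05. The smallest adjusted p reached was 0.061 for Fbp1 (-0.18, percentile over detected probes) and 0.098 for Gys2 (0.35, normexp). Over all features 1215 passed, 320 of them higher and 895 lower. The counts were 549 higher and 602 lower with normexp, 396 and 457 with quantile normalization, and 310 and 1502 with the percentile over detected probes, so the split moved with the scaling. Leaving out 1 mouse gave 735 to 1582 features. The lowest counts were 735 without miR-185-inh mouse 7, 768 without miR-185-inh mouse 6, 786 without ctrl-inh mouse 12 and 794 without ctrl-inh mouse 11. Within slide row 1 alone 0 features passed by limma (4609 at an unadjusted p under 0.05) and within row 2 alone 466, with 4 mice a group in each. With a replicate block over the 5 shared mouse numbers 0 features passed (2598 at an unadjusted p under 0.05) and the median over the 8 genes was -0.05. Same-numbered mice deviated together with r from -0.128 to 0.107, so the numbers were not read as pairs. The correlation of Pcx and Fbp1 in miR-185-inh livers was -0.213 with quantile normalization, and the cause was not tested. Hlf passed with normexp (0.58, adjusted p = 0.033), with slide row and column as covariates (0.047), with array weights (0.037) and without miR-185-inh mouse 10 (0.041). Slc25a11 missed the threshold with no filter on dim probes (adjusted p = 0.055), Slc2a10 in the trended and robust fit (0.071), and both without most single mice. Analyses without miR-185-inh mice 3 and 6 together, correlations over fewer mice and those with row means taken out were chosen after seeing the data.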
